A study of Arabidopsis thaliana with 23 samples.

Results

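The *zmp-2* mutant was compared with wild type (WT) for 24-nt and 23-nt small RNAs in 6 inflorescence libraries, out of 23 in the series. Their titles carry the letter A, here called batch A, and 3 are from *zmp-2* and 3 from WT. The members were chosen by genotype and batch label alone. *zmp-2* is a T-DNA insertion allele of *ZMP* (AT5G63700) in the Col-0 ecotype, with *ZMP* transcripts reduced according to the study, and WT is Col-0, so that the insertion is the stated difference between them. All plants were grown at 23 °C under 16 h of light, and the tissue was whole inflorescences, which hold many cell types. A loss of siRNA per cell and a change in the proportion of cells that make it cannot be told apart in such samples. A second set of 3 *zmp-2* and 3 WT libraries, labelled batch B, served as separate libraries at the same windows, and 3 batch A libraries of *zmp-2* carrying a *ZMP-YFP* transgene under the *ZMP* promoter are given at single loci.

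Plants make 24-nt siRNAs through RNA polymerase IV (Pol IV), which transcribes silent DNA, RDR2, which copies the transcript into double-stranded RNA, and DCL3, which dices it. The siRNAs guide ARGONAUTE proteins and the methyltransferase DRM2 to matching sequence, and the methylation they bring is seen most clearly at cytosines in CHH contexts, where H is A, C or T. Transposons and repeats, many of them in pericentromeric heterochromatin, are the main source of such siRNAs. ZMP carries zinc finger, MDM2/SWIB and Plus-3 domains and was described by the study as a partner of Pol IV. DCL3 products of 23 nt accompany the 24-nt class and are read here as a second size class from the same loci.

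The 3 *zmp-2* libraries held 7548586, 3729191 and 8353480 reads of 21 to 24 nt, and the 3 WT libraries held 5212852, 4131882 and 4139434. Of these, 24-nt reads made up 61.5 ± 0.793% in *zmp-2* and 62.8 ± 0.184% in WT (SD, n = 3 each, exact two-sided permutation p = 0.1, the smallest p that 3 against 3 libraries allow). Levels are given as RPMR, reads per M (mega) of 45S rRNA reads counted from the same library. The rRNA reads per 100 genome-mapped reads themselves numbered 5.91 ± 0.624 in *zmp-2* and 4.88 ± 0.494 in WT and did not overlap (exact permutation p = 0.1), so the calls, the sums over genome regions and the agreement between sizes were also computed with RPM, reads per M mapped to the genome. Sums over single loci, genes and bins and the profiles around loci are in RPMR alone. The 21-nt reads over miRNA genes per rRNA read overlapped between the groups, at 0.894 ± 0.0686 in *zmp-2* and 0.930 ± 0.0432 in WT (exact permutation p = 0.5). The miRNA genes *MIR159A*, *MIR167A*, *MIR172A*, *MIR172B* and *MIR319A* all gave 21-nt reads in every library of both groups, which by itself does not identify the tissue. The *ZMP* gene itself gave 12.5, 7.54 and 9.34 RPMR of 24-nt reads in *zmp-2* and 3.70, 0 and 0 RPMR in WT, too few for any of its windows to be tested, and small RNA reads do not measure its mRNA.

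The genome was read in windows of 100 bp. A window was called a hypo-DSR (differential small RNA region, lower in *zmp-2*) or a hyper-DSR (higher in *zmp-2*) where edgeR's quasi-likelihood test gave a change of at least 2-fold at a Benjamini-Hochberg FDR of at most 0.05. The windows below had the lowest FDR in each direction among those where the *zmp-2* and WT libraries did not overlap, 1 per locus. They are printed because the strongest losses and gains can be read against them further on. Sequence is from RefSeq TAIR10.1, plus strand, 5′ to 3′, with CHH cytosines of the printed strand in capitals.
Hypo window 1, chr1:16365801-16365900: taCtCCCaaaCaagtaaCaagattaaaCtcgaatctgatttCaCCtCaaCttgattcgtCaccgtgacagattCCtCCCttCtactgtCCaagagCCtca
Hypo window 2, chr2:5944201-5944300: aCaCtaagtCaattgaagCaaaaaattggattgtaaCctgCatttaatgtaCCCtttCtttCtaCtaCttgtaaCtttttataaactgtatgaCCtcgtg
Hypo window 3, chr5:2656101-2656200: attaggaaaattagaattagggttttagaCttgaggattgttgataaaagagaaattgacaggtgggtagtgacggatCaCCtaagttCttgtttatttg
Hyper window 1, chr3:17520401-17520500: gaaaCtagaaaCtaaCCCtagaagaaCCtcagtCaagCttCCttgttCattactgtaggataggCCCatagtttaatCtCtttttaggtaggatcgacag
Hyper window 2, chr5:18065501-18065600: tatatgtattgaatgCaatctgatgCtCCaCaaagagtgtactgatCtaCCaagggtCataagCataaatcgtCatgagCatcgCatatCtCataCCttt
Hyper window 3, chr5:8226701-8226800: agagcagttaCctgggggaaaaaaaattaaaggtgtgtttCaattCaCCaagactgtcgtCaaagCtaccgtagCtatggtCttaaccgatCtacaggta

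These 6 windows held between 5 and 23 CHH cytosines on the printed strand and between 6 and 24 on the other. Over all hypo-DSRs the median was 27 CHH cytosines on both strands together, over hyper-DSRs 26, and over all tested windows 26. The median GC content was 36% at hypo-DSRs, 38% at hyper-DSRs and 37% over all tested windows.

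Loss of 24-nt siRNAs was the more frequent direction. Of 149021 windows tested, 9021 were hypo-DSRs (6.05% of those tested) and 3692 were hyper-DSRs (2.48%). For 23-nt reads, 61872 windows could be tested, and 4500 were hypo-DSRs (7.27%) and 1131 hyper-DSRs (1.83%). Over all tested 24-nt windows the median log2 fold change was 0.08 with rRNA scaling and 0.36 with RPM scaling, so the split between the directions depended on the scaling: hyper-DSRs were 29.0% of the 24-nt calls with rRNA scaling and 47.2% with RPM. No window that was called with rRNA scaling was called in the opposite direction with RPM, which a shift of this size could not bring about. With TMM, RPM and miRNA scaling alike, 81.0% of the hypo-DSRs and 99.9% of the hyper-DSRs kept their call. Each of these scalings raised the median log2 fold change, to 0.17, 0.36 and 0.13, so they could hardly remove hyper-DSRs. A refit with DESeq2 kept 73.4% of the hypo-DSRs and 58.7% of the hyper-DSRs. Leaving out each library in turn lowered the hyper-DSRs to between 2289 and 3075, the lowest without *zmp-2* replicate 1.

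The changes were large in both directions, and the gains had the longer tail in the fitted fold changes. The median log2 fold change was -2.18 over hypo-DSRs, with quartiles at -2.84 and -1.65, and 2.82 over hyper-DSRs, with quartiles at 1.79 and 5.09. With windows that had no read in 1 group set to a bound from 3 counts per library, the medians were -2.14 and 1.94. The order of the 2 medians thus depended on how windows without reads were set. The bound is a floor on the change at such windows, so these medians do not settle which direction changed more. Of the hypo-DSRs 58.6% changed by at least 4-fold and 20.4% by at least 8-fold, and of the hyper-DSRs 69.4% and 46.5%. These shares come from the fitted values, without that bound. These sizes describe windows that the same test selected.

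Hypo-DSRs lay in windows rich in siRNA in WT, and hyper-DSRs lay mostly in windows with almost none. Part of this contrast is built into the selection. Windows needed at least 10 counts over both groups together and were called on the change between *zmp-2* and WT. A hypo-DSR therefore had to hold reads in WT, whereas a hyper-DSR could pass on *zmp-2* reads alone. How much of the contrast goes beyond the selection was not tested. The median hypo-DSR had 27.4 RPMR in *zmp-2* and 117 RPMR in WT, and the median hyper-DSR had 50.8 RPMR in *zmp-2* and 6.61 RPMR in WT, beside 14.3 RPMR in *zmp-2* and 14.0 RPMR in WT over all tested windows. No 24-nt read was found in WT at 875 hyper-DSRs (23.7%), whereas 201 hypo-DSRs had no read in *zmp-2*. No library held more than 3 counts in *zmp-2* at 12.2% of hypo-DSRs and in WT at 52.9% of hyper-DSRs. At these windows depth sets the precision of the fold change, and an absence of reads is an absence at this depth.

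The share of tested windows that were hypo-DSRs went up with read count, at 1.25% of windows with 10 to 30 counts over the 6 libraries, 5.93% at 30 to 100, 14.9% at 100 to 300, 22.3% at 300 to 1000 and 27.1% at 1000 or more. Hyper-DSRs had their highest share in the class of 300 to 1000 counts, at 6.18%, and made up 3.51% of windows with 1000 or more. More counts also give the test more power, so that these shares are not free of detection limits.

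The windows called in batch B gave a measure of the lost and gained reads in batch A that the batch A test had not selected. In batch B, 6.12% of 99044 tested 24-nt windows were hypo-DSRs and 1.82% hyper-DSRs. These hypo-DSRs took up 8.18, 8.65 and 9.15% of all 24-nt reads in the batch A *zmp-2* libraries and 26.2, 27.3 and 27.2% in the batch A WT libraries. The difference in the means, -18.3 points, is far larger than the spread in either group (exact permutation p = 0.1). The hyper-DSRs took up 3.94, 4.14 and 3.78% of 24-nt reads in *zmp-2* and 0.805, 0.767 and 0.793% in WT (exact permutation p = 0.1). A share of reads needs no scaling by rRNA.

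Around the centres of loci called in batch B, the level in *zmp-2* stayed lower at hypo loci out to 1 kb, and the gain at hyper loci faded sooner. At the centre of 2201 hypo loci the batch A libraries held 127 ± 6.61 RPMR per window in *zmp-2* and 432 ± 28.3 RPMR in WT, a log2 ratio of -1.76 (n = 3 each). The log2 ratio was -1.64 and -1.61 at 100 bp on either side, -1.27 and -0.99 at 300 bp, and still -1.08 and -1.11 at 1 kb, without overlap of the groups at any of these distances. At the centre of 1185 hyper loci the levels were 165 ± 21 RPMR in *zmp-2* and 47.0 ± 5.37 RPMR in WT, a log2 ratio of 1.81. It was 1.65 and 1.21 at 100 bp, 0.92 and 0.75 at 200 bp, and 0.29 and 0.21 at 1 kb, where the groups overlapped on 1 side. At 2 kb from the centre of hypo loci the log2 ratio was -1.08 and -1.07. These loci include neighbours of one another, so distant windows may belong to another called locus. Distances run from the locus centre, so near windows can lie inside the locus. Loci called in batch A held a mean of 3.34 called windows for hypo and 1.55 for hyper. Whether the slower fade follows from locus length was not tested, nor how far the loss passed the edge of a locus.

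**Figure D1:**
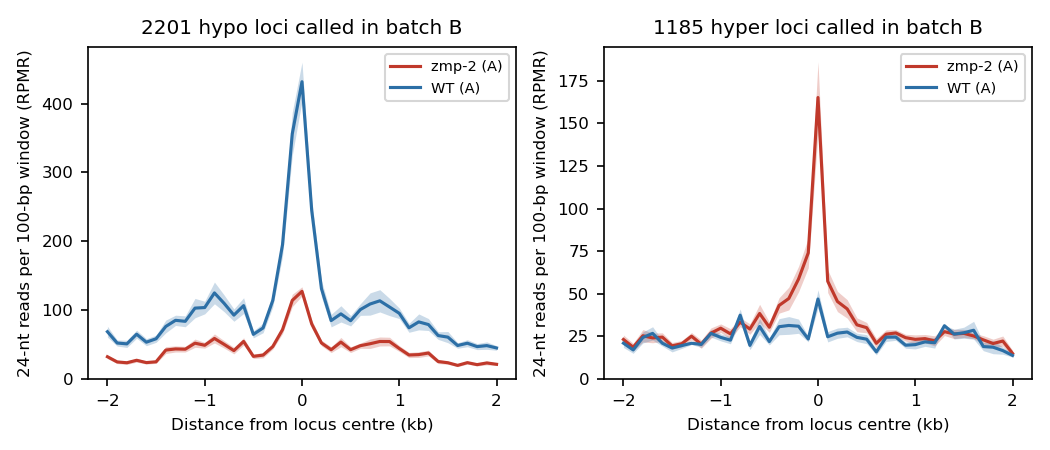
Mean 24-nt level in RPMR per 100-bp window (vertical axis) against distance from the centre of loci called in batch B (horizontal axis, kb), for the batch A *zmp-2* and WT libraries, with shading of 1 SD over 3 libraries each. At hypo loci the *zmp-2* line lies under the WT line over the whole span, and at hyper loci the 2 lines are far apart only near the centre, where they stand at 165 RPMR in *zmp-2* and 47.0 RPMR in WT.

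Summed over the nuclear genome, without any selection of windows, the 24-nt level was 8697 ± 891 kRPMR (1 kRPMR is 1000 RPMR) in *zmp-2* and 10866 ± 1004 kRPMR in WT, a log2 ratio of -0.32 (SD, n = 3 each, exact permutation p = 0.1, adjusted p = 0.13 over 13 regions). The groups did not overlap with rRNA scaling, but did with RPM, where the log2 ratio was -0.05 (exact permutation p = 0.2). Pericentromeres, taken as the unbroken run of 100-kb bins with low coding coverage, stood at a log2 ratio of -0.39, and chromosome arms at -0.29. With RPM the pericentromeres stayed without overlap at -0.12, and the arms overlapped at -0.01. The pericentromeric part of nuclear 24-nt reads, which needs no scaling, was 32.8, 32.6 and 33.0% in *zmp-2* and 34.1, 34.6 and 34.4% in WT, a difference of -1.58 points (exact permutation p = 0.1).

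The log2 ratio varied among chromosomes. The chromosome 4 pericentromere had the lowest log2 ratio of the 5, -0.51, with 533 ± 55.6 kRPMR in *zmp-2* and 760 ± 70.7 kRPMR in WT. The chromosome 5 pericentromere had the highest, -0.14, with 503 ± 50.7 kRPMR in *zmp-2* and 551 ± 33.6 kRPMR in WT, and its groups overlapped (exact permutation p = 0.3). The groups also overlapped in the arms of chromosome 1 (-0.24) and chromosome 3 (-0.20). With RPM scaling these 3 regions turned to 0.14, 0.04 and 0.07. A difference between chromosomes was not tested.

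In windows rather than in reads, hypo-DSRs followed the tested windows along the chromosomes, and hyper-DSRs were shifted to the arms. Pericentromeres held 53.5% of hypo-DSRs, 41.0% of hyper-DSRs and 55.9% of tested windows. Hypo-DSRs were 5.82% of tested pericentromeric windows and 6.41% of tested arm windows, and hyper-DSRs were 1.83% and 3.34%. Windows in which 90% or more of the 24-base words have no second copy in the genome were taken as uniquely mappable, which held for 67.8% of hypo-DSRs, 46.2% of hyper-DSRs and 41.4% of tested windows. Within uniquely mappable sequence hypo-DSRs were 9.93% of pericentromeric and 9.98% of arm windows, whereas hyper-DSRs were 1.04% and 4.32%. In the rest of the genome, where reads were shared out among copies, hyper-DSRs were 2.25% of pericentromeric and 2.37% of arm windows.

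Most called windows lay outside genes or in pseudogene models, the class that holds many annotated transposon remnants in this annotation. Intergenic sequence held 64.1% of hypo-DSRs, 53.4% of hyper-DSRs and 55.2% of tested windows, and pseudogenes held 22.6%, 27.6% and 33.9%. Coding sequence held 6.57% of hypo-DSRs and 9.67% of hyper-DSRs beside 4.81% of tested windows. UTRs held 1.05% of hypo-DSRs and 4.82% of hyper-DSRs beside 1.46% of tested windows. The mitochondrial genome added 25 hypo-DSRs and 1 hyper-DSR, and the plastid genome 1 hypo-DSR.

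The hypo-DSRs were concentrated in few stretches of chromosome. Of 1182 bins of 100 kb, 87 bins held 50% of the hypo-DSRs, 147 bins held 50% of the hyper-DSRs and 173 bins held 50% of the tested windows. The 10 fullest bins held 10.7% of the hypo-DSRs and 10.3% of the hyper-DSRs, beside 4.0% of tested windows in the 10 fullest bins of that kind. Both directions occurred together in 591 bins. Hypo-DSRs were the more numerous in 530 bins and hyper-DSRs in 385.

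**Figure D2:**
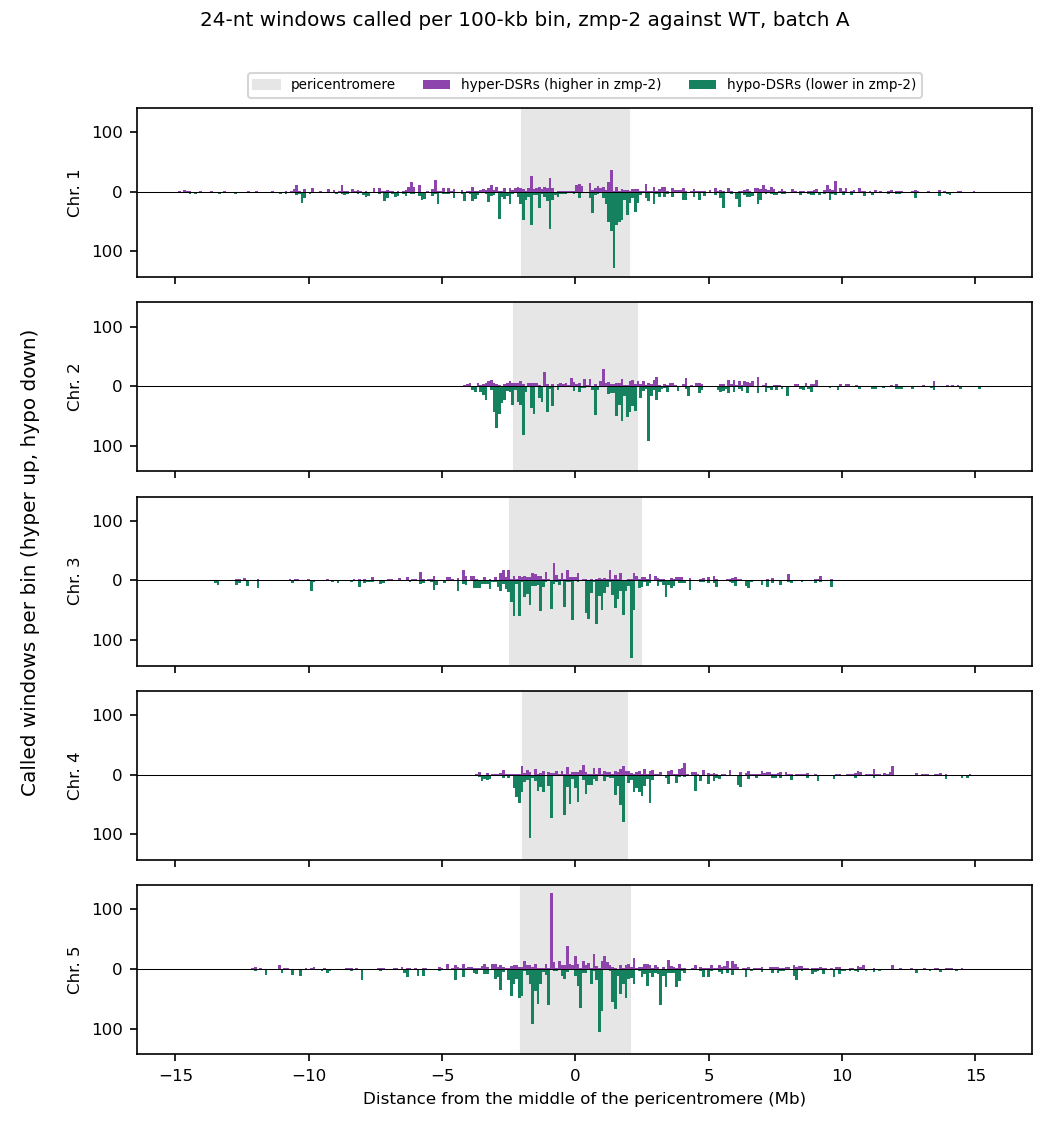
24-nt windows called per 100-kb bin (vertical axis, hyper-DSRs upward and hypo-DSRs downward) along chromosomes 1 to 5, against distance in Mb from the middle of each pericentromere (grey band). Hypo-DSRs form peaks of up to 130 windows in a bin, and hyper-DSRs lie in both arms and pericentromeres, with at most 38 windows in a bin except for 1 bin of 128 windows in the chromosome 5 pericentromere.

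The fullest hypo bin was chr3:15600001-15700000, where 130 of 413 tested windows were called and the whole bin held 76.9 ± 10.1 kRPMR in *zmp-2* and 167 ± 34.0 kRPMR in WT. The bin chr1:16300001-16400000 had 128 of 665 windows called and held 24.5 ± 2.51 kRPMR in *zmp-2* and 73.5 ± 5.63 kRPMR in WT. In chr4:2000001-2100000 107 of 538 windows were called, and in chr5:13000001-13100000 105 of 548. All 4 are pericentromeric. The next, chr2:6900001-7000000, is in a chromosome arm by the definition used, with 92 of 412 windows called and 26.0 ± 1.5 kRPMR in *zmp-2* against 89.0 ± 7.78 kRPMR in WT.

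Hyper-DSRs had 1 bin that stood apart. In chr5:11200001-11300000, 128 of 350 tested windows were called, and the bin held 34.4, 30.5 and 26.7 kRPMR in *zmp-2* and 7.51, 4.91 and 5.54 kRPMR in WT. Each *zmp-2* library was above every WT library, and the log2 ratio of the means was 2.37. The 3 *ZMP-YFP zmp-2* libraries stood at 11.7, 5.45 and 4.85 kRPMR. In batch B the same bin held 36.7 ± 7.95 kRPMR in *zmp-2* and 8.84 ± 1.53 kRPMR in WT, a log2 ratio of 2.04, and in batch A its 23-nt log2 ratio was 2.30. The called windows ran through chr5:11229001-11285200, with 44 of 61 tested windows called in the 10 kb from 11230001 to 11240000. They were 99.2% intergenic, and 1.56% of them were uniquely mappable, so which copy of the repeat gave the reads cannot be told. Without this bin, a choice made after seeing the data, 3564 hyper-DSRs were left, of which 38.8% were pericentromeric, and the log2 ratio of the chromosome 5 pericentromere was -0.21. The next bin of its kind, chr5:11800001-11900000, held 38 hyper-DSRs, none of them uniquely mappable.

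Lost windows lay in longer runs than gained windows. Called windows of 1 direction with at most 2 windows between them were joined into loci, which gave 2702 hypo loci of up to 60 called windows and 2388 hyper loci of up to 16. A single window made up 42.5% of the hypo loci and 72.2% of the hyper loci. Loci of at least 5 called windows numbered 584 and 80 and held 57.7% of the hypo-DSRs and 15.0% of the hyper-DSRs. Among tested windows next to a called one, 67.9% shared its call at hypo-DSRs and 43.3% at hyper-DSRs, while 9 neighbours of each kind carried the opposite call. Uncalled neighbours leaned the same way, with a median log2 fold change of -1.04 beside hypo-DSRs and 1.05 beside hyper-DSRs. The number of windows called differed between the directions, which by itself changes how often called windows meet.

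**Figure D3:**
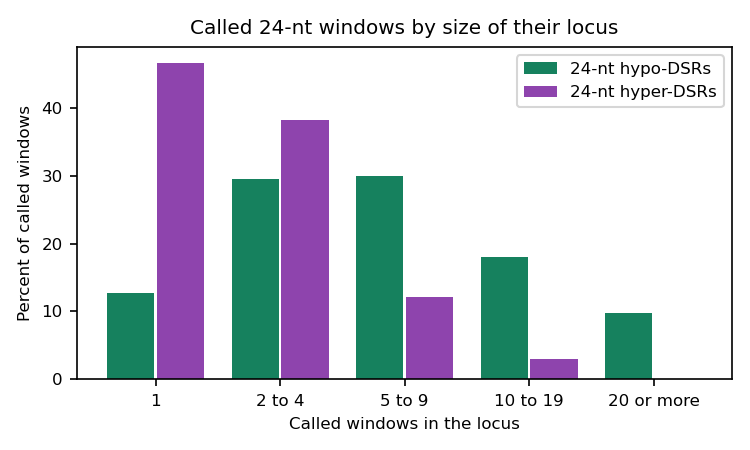
Percent of called 24-nt windows (vertical axis) by the number of called windows in their locus (horizontal axis), for hypo-DSRs and hyper-DSRs. Single windows held 12.7% of hypo-DSRs and 46.7% of hyper-DSRs, and loci of 20 or more held 9.77% of hypo-DSRs and no hyper-DSR.

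Longer loci were found again more often in batch B, in both directions. At least 1 window of the same call was present in batch B for 20.8% of 1149 hypo loci with 1 window, 70.8% of 969 with 2 to 4, 95.1% of 427 with 5 to 9 and 100% of 157 with 10 or more. For hyper loci the shares were 17% of 1723, 53.0% of 585, 93.0% of 71 and 100% of 9. A longer locus has more windows in which a call can recur, so these shares do not compare single windows. Of 9021 hypo-DSRs, 8607 were tested in batch B, and 5097 of these (59.2%) were called again and 4 in the other direction. Of 3692 hyper-DSRs, 2865 were tested there, with 1139 (39.8%) called again and 5 in the other direction. Pericentromeres held 51.5% of the hypo loci with 1 window, 45.1% of those with 2 to 4 and 45.2% of those with 5 to 9. They held 68.8% of those with 10 or more, beside 55.9% of tested windows.

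The 6 longest hypo loci are given by library, as the sum of 24-nt reads over the locus. The longest, chr4:3319201-3326200, overlaps the protein-coding model AT4G06526 and the pseudogene model AT4G06527 and had 60 of 64 tested windows called. It held 225, 211 and 316 RPMR in *zmp-2* and 3560, 3648 and 3374 RPMR in WT, a log2 ratio of the means of -3.81. The locus at chr3:14008301-14012500, over the pseudogene AT3G33178, had 38 of 40 windows called and held 229, 173 and 307 RPMR in *zmp-2* and 2880, 2729 and 2703 RPMR in WT. These 2 lost the largest proportion of the 6. The 23-nt log2 ratios were -3.61 and -3.13, and in batch B the chromosome 4 locus held 66.6 ± 8.15 RPMR in *zmp-2* and 1010 ± 174 RPMR in WT.

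The most siRNA-rich of the 6, chr2:6972201-6976900, spans 5 gene models from AT2G16018 to AT2G16040 in a chromosome arm. It held 6184, 5919 and 5976 RPMR in *zmp-2* and 40292, 38122 and 35101 RPMR in WT, with 45 of 47 windows called and 40 called again in batch B. The locus at chr1:16352701-16357800, which overlaps the protein-coding model AT1G43320, held 3328, 3186 and 3222 RPMR in *zmp-2* and 19558, 18263 and 18253 RPMR in WT. What remained at the chromosome 2 locus in *zmp-2* was thus above the WT level of the chromosome 3 and chromosome 4 loci. The loci chr5:15354601-15360000 over the pseudogene AT5G38383 and chr5:13018201-13022400 over AT5G34839 and AT5G34841 had log2 ratios of -2.47 and -2.89. At all 6 loci the *ZMP-YFP zmp-2* libraries lay between the groups, such as 1913, 2378 and 2081 RPMR at the chromosome 4 locus.

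Gained loci were shorter. AT5G44770, which codes for a Cys/His-rich C1 domain protein, overlaps chr5:18065001-18066200, where all 12 tested windows were called and 94.9% of 24-mers were unique. This locus held 5659, 6308 and 4455 RPMR in *zmp-2* and 7.39, 16.2 and 11.8 RPMR in WT, a log2 ratio of 8.86. The *ZMP-YFP zmp-2* libraries held 2646, 1652 and 1609 RPMR, far above WT. In batch B, 10 of the windows were called, at 1106 ± 33.0 RPMR in *zmp-2* and 11.3 ± 15.5 RPMR in WT.

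AT2G16580, a SAUR-like gene of a family named for small auxin-up RNAs, overlaps chr2:7184301-7185600 together with AT2G16575. The locus held 12649, 9957 and 7637 RPMR in *zmp-2* and 736, 385 and 418 RPMR in WT. All 11 of its tested windows were called. The pseudogene AT3G28800 overlaps chr3:10817001-10818100, which held 9994, 9313 and 7920 RPMR in *zmp-2* and 1409, 1032 and 1223 RPMR in WT. Of the 6 longest hyper loci, the one with most windows was chr5:11230301-11232400 inside the bin described above, with 16 of 18 windows called and 6338, 5448 and 5675 RPMR in *zmp-2* against 780, 709 and 572 RPMR in WT. The other 2, over AT2G12695 on chromosome 2 and AT3G31375 on chromosome 3, had log2 ratios of 3.73 and 3.45.

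Among single windows, hypo window 1 lies in the noncoding RNA gene AT1G09485 and held 133, 140 and 157 RPMR in *zmp-2* and 2825, 2567 and 2344 RPMR in WT. The log2 fold change was -4.16 ± 0.20 (SE, edgeR FDR 2.05e-09), with -4.40 in batch B and -3.92 for 23-nt reads. Hypo window 2, in a locus on the chromosome 2 pericentromere, held 106 RPMR in each of the 3 *zmp-2* libraries and 2544, 2117 and 2028 RPMR in WT. Both are single points in runs of called windows.

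Hypo window 3 was of another kind. It is a called window with no called neighbour, 231 bp from AT5G08250, a cytochrome P450 gene, and its 24-nt reads were nearly gone: 8.34, 0 and 6.23 RPMR in *zmp-2* (4, 0 and 4 counts) and 1098, 1806 and 1835 RPMR in WT. The *ZMP-YFP zmp-2* libraries stood at 6.78, 3.61 and 0 RPMR, with the *zmp-2* libraries and not with WT. No 23-nt read was found in *zmp-2* and 283 ± 127 RPMR in WT, and in batch B the 24-nt level was 0 in each *zmp-2* library and 818 ± 150 RPMR in WT. Its printed strand has 5 CHH cytosines and the other 24.

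Hyper window 1 lies in the long noncoding RNA gene AT3G07775 and held 1421, 1267 and 1172 RPMR in *zmp-2* and 0, 4.05 and 0 RPMR in WT. The WT value is 1 read, so the ratio of 984 has a 95% counting interval of 176 to 38888. The *ZMP-YFP zmp-2* libraries, at 913, 1087 and 1080 RPMR, stayed close to *zmp-2*. Hyper window 2, in the coding sequence of AT5G44770, held 1392, 1772 and 1382 RPMR in *zmp-2* and 0, 4.05 and 0 RPMR in WT. Hyper window 3 lies in the coding sequence of AT5G24220, a lipase class 3-related gene, and held 986, 894 and 820 RPMR in *zmp-2* and 0 in each WT library. Against a floor of 3 counts per library, this is at least 77.0-fold higher in *zmp-2*. Here the *ZMP-YFP zmp-2* libraries stood at 102, 64.9 and 22.8 RPMR.

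Hyper window 5 lies in an intron of AT1G14780, a gene for a MAC/perforin domain protein, at chr1:5091801-5091900, and its 24-nt reads stood at 2568, 1776 and 1757 RPMR in *zmp-2* and 0, 20.2 and 0 RPMR in WT. It also gained 1090 ± 194 RPMR of 23-nt reads in *zmp-2*, beside 6.48 ± 2.22 RPMR in WT. The 12 windows with the lowest FDR, 6 in each direction, were refitted in several ways. They kept their calls with TMM, RPM and miRNA scaling, DESeq2, a replicate block and each library left out. The other refits were not checked at these windows.

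**Figure D4:**
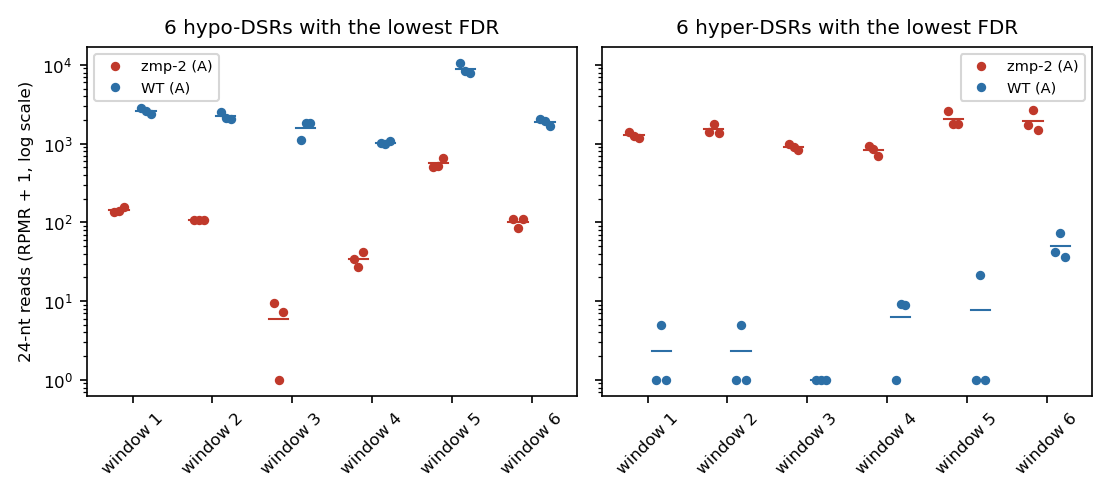
24-nt level in each batch A *zmp-2* and WT library (RPMR + 1, log axis) at the 6 hypo-DSRs and the 6 hyper-DSRs with the lowest FDR, with bars at the means. *zmp-2* and WT do not overlap at any of the 12 windows, because windows with overlap were passed over in choosing them.

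The 6 genes with most hypo-DSRs were all pseudogene models, but this ranking counts windows, of which pseudogenes had many. Over all pseudogenes 4.07% of 50798 tested windows were hypo-DSRs and 2.02% hyper-DSRs, beside 6.05% and 2.48% of all tested windows. AT5G32690 had 63 of 247 tested windows called as hypo-DSRs and held 3774, 3461 and 3242 RPMR in *zmp-2* and 7498, 6453 and 6321 RPMR in WT. AT5G38383 had 53 of 74 called, at 1165, 1154 and 1178 RPMR in *zmp-2* and 5890, 5466 and 5500 RPMR in WT. AT3G33178 with 42 of 52, AT4G06527 with 32 of 37, AT4G05526 with 26 of 30 and AT3G43730 with 25 of 28 followed. Among genes with most hyper-DSRs, the pseudogene AT1G43050 had 12 of 14 windows called and AT1G36775 had 10 of 17. AT1G36775 held 9546, 7197 and 6883 RPMR in *zmp-2* and 4341, 3198 and 3547 RPMR in WT.

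Genes of the siRNA pathway itself gave few 24-nt reads. Of 20 genes of the Pol IV and DRM2 pathway, 4 had 7 tested windows in all, and none was called. Of 6 *TAS* genes, whose transcripts are cut by miRNAs and diced into 21-nt siRNAs, 5 had 21 tested windows in all, and none was called. With 6.05% and 2.48% of all tested windows called, the absence of calls in so few windows sets neither list apart. Among 5 genes known to be controlled by nearby siRNAs or methylation, read with 2 kb upstream, *EPF2*, a secreted peptide that limits stomatal number, had 4 hypo-DSRs and 2 hyper-DSRs, at 617, 468 and 571 RPMR in *zmp-2* and 1616, 1733 and 1381 RPMR in WT. *ROS1*, a DNA demethylase, had 1 hypo-DSR in 3 tested windows and *SDC*, an F-box gene silenced by methylation of its promoter repeats, had 1 hyper-DSR in 16. *FWA*, a homeodomain gene silenced by methylated repeats, had no call in 6 windows, and *QQS* none in 12.

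Over all protein-coding genes with a tested window, 306 of 2880 (10.6%) held a hypo-DSR and 404 (14.0%) a hyper-DSR. Per window, 7.09% of their 14037 tested windows were hypo-DSRs and 4.62% hyper-DSRs. Of 131 F-box genes, which code for substrate adaptors of ubiquitin ligases, 11 (8.4%) held a hypo-DSR and 28 (21.4%) a hyper-DSR, or 4.35% and 8.50% of 506 windows. *AT4G10740* had 6 hyper-DSRs, at 473, 426 and 371 RPMR in *zmp-2* and 77.6, 85.0 and 86.8 RPMR in WT, and *AT4G10700*, an F-box/kelch gene, had 6 hypo-DSRs, at 298, 275 and 252 RPMR in *zmp-2* and 1852, 1538 and 1507 RPMR in WT. The 31 nucleotide-binding leucine-rich repeat (NLR) genes with a tested window, a class of immune receptors that the study had picked out on these libraries, held no hypo-DSR and 6 genes (19.4%) with a hyper-DSR. Per window the share of hyper-DSRs was 3.07% of 261, beside 4.62% over all protein-coding genes, and NLR genes had more tested windows each. AT1G66090 had 3 hyper-DSRs, at 327, 351 and 349 RPMR in *zmp-2* and 7.39, 4.05 and 11.8 RPMR in WT. NLR genes occur in near-identical copies, among which reads can be shared out.

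Of 26 defensin-like genes, which code for small cysteine-rich peptides and were also picked out by the study, 6 (23.1%) held a hypo-DSR and 3 (11.5%) a hyper-DSR, or 16.5% and 7.06% of 85 windows. *AT1G33607* had 4 hypo-DSRs, at 615, 618 and 620 RPMR in *zmp-2* and 2858, 2713 and 2458 RPMR in WT. *AT2G22805* had 3 hyper-DSRs, at 659, 645 and 546 RPMR in *zmp-2* and 7.39, 4.05 and 7.89 RPMR in WT. Of 153 miRNA genes, 6 (3.92%) held a hypo-DSR and 5 (3.27%) a hyper-DSR in 24-nt reads, beside 12.1% and 7.10% of 676 other noncoding RNA genes. Per window the shares were 3.81% and 2.97% of 236 at miRNA genes and 9.55% and 2.96% of 2334 at the other noncoding genes. Among the miRNA genes called were *MIR8180* with 3 hypo-DSRs, at 152, 170 and 153 RPMR in *zmp-2* and 710, 700 and 627 RPMR in WT, and *MIR832* with 2 hyper-DSRs, at 62.5, 98.0 and 74.7 RPMR in *zmp-2* and 0 in each WT library.

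The study probed 4 loci by Northern blot, chosen on these libraries, and they are therefore no independent sample. The hyposiR1 interval, chr3:11042700-11042950, held 2047, 1927 and 1876 RPMR in *zmp-2* and 8884, 8862 and 8314 RPMR in WT. The hyposiR2 interval, chr4:6275900-6276200, held 456, 550 and 724 RPMR in *zmp-2* and 10130, 9907 and 9710 RPMR in WT. The groups were far apart at both. The hypersiR1 interval in *MEE65*, chr2:145650-146649, was much weaker, at 142, 121 and 90.3 RPMR in *zmp-2* and 11.1, 0 and 0 RPMR in WT. The hypersiR2 interval in AT1G43171, a B3 domain gene, at chr1:16269501-16270000, held 215, 166 and 115 RPMR in *zmp-2* and 48.1, 28.3 and 43.4 RPMR in WT, and its 23-nt levels overlapped between the groups.

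Reads of 23 nt moved with those of 24 nt. At 6980 hypo-DSRs with enough 23-nt reads to be tested (77.4%), 4105 (58.8%) were also 23-nt hypo-DSRs and 98.9% had a lower 23-nt level. At 2293 testable hyper-DSRs (62.1%), 869 (37.9%) were 23-nt hyper-DSRs and 96.9% had a higher 23-nt level. At neither kind did any 23-nt call go the other way. Where at least 30 counts of 23-nt reads were present, 79.1% of hypo-DSRs and 56.1% of hyper-DSRs were called in both sizes. Both sizes come from the same libraries and share the rRNA factor, so the agreement includes any error in that factor.

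The sizes of change were also close. At the testable hypo-DSRs the median log2 fold change was -2.04 for 24-nt and -1.90 for 23-nt reads, and at the testable hyper-DSRs 2.14 and 1.78. Across 61381 windows tested in both sizes Pearson's r of the log2 fold changes was 0.75 and Spearman's rho 0.63, a description across windows that share libraries and are not independent. The 2 sizes differed by more than 2-fold at 15.0% of hypo-DSRs and 37.3% of hyper-DSRs. In the other direction, 91.2% of 23-nt hypo-DSRs and 76.8% of 23-nt hyper-DSRs were also called for 24-nt reads. Of the 23-nt hypo-DSRs not called at 24 nt, 380 of 390 still had a lower 24-nt level, and of the hyper-DSRs 244 of 254 had a higher one.

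**Figure D5:**
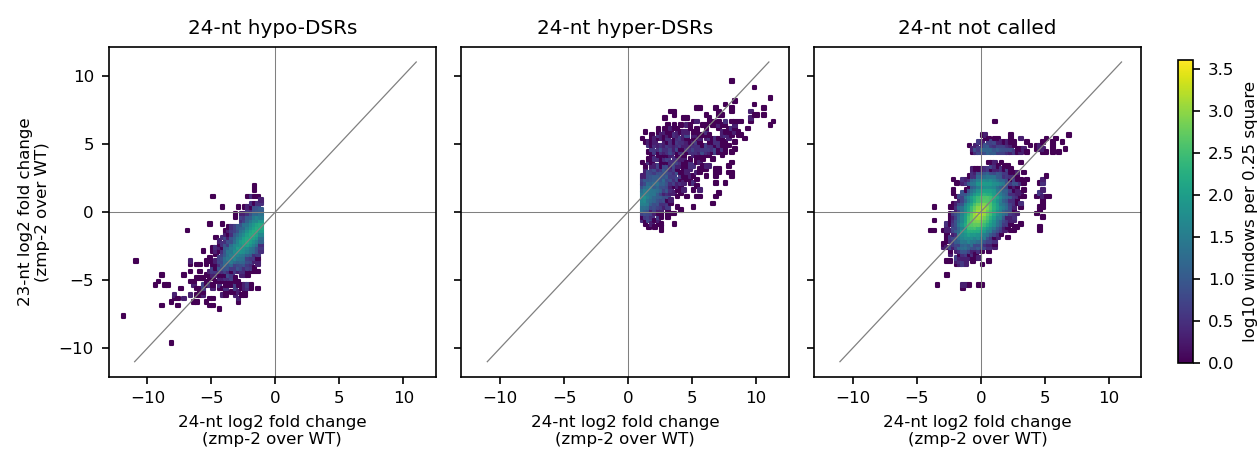
23-nt log2 fold change (vertical axis) against 24-nt log2 fold change (horizontal axis), *zmp-2* over WT, for windows tested in both sizes, in 3 panels for 24-nt hypo-DSRs, 24-nt hyper-DSRs and windows not called, with colour for the log10 number of windows per square. Most hypo-DSRs sit in the lower left and most hyper-DSRs in the upper right, near the diagonal of equal change.

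The proportion of 23-nt reads was measured at the windows called in batch B. At these hypo-DSRs, 23-nt reads were 15.5, 14.5 and 15.2% of 23- and 24-nt reads in *zmp-2* and 14.6, 14.2 and 14.2% in WT, which overlapped (exact permutation p = 0.2). At the hyper-DSRs they were 15.3, 14.3 and 15.3% in *zmp-2* and 15.9, 15.6 and 16.1% in WT, without overlap (exact permutation p = 0.1, adjusted p = 0.14 over 7 values). Over all windows the share was 18.1 ± 0.370% in *zmp-2* and 17.4 ± 0.240% in WT, which overlapped (exact permutation p = 0.2). The differences were below 1 point in size, while the levels at the same windows differed by log2 ratios of -1.96 for 24-nt and -1.87 for 23-nt reads at hypo-DSRs and 2.00 and 1.91 at hyper-DSRs.

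Agreement between sizes in batch B was close to that of batch A at hypo-DSRs and higher at hyper-DSRs. In batch B, 9.02% of 35794 tested 23-nt windows were hypo-DSRs and 1.55% hyper-DSRs. Of its testable 24-nt hypo-DSRs 59.1% were called in both sizes, and of its hyper-DSRs 52.0%, beside 58.8% and 37.9% in batch A. Fewer batch B hyper-DSRs were testable at 23 nt, 46.6% beside 62.1% in batch A. Of the batch A 23-nt hypo-DSRs tested in batch B, 2473 of 3969 (62.3%) were called again and none in the other direction. Of the 23-nt hyper-DSRs, 349 of 777 (44.9%) were called again and 3 in the other direction.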

How the data were processed

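Small RNA was sequenced from inflorescence total RNA, and 3 *zmp-2* and 3 WT libraries of batch A were compared, with the 6 of batch B as separate libraries. Per the study's methods, the authors trimmed adapters, set aside reads matching structural RNA with Bowtie 1.1.0, mapped the rest to TAIR10 without mismatches with ShortStack, placed multi-mapping reads by local unique reads, and gave each read to the 100-bp window of its 5′ end. The authors deposited raw counts per window and size, RPM values relative to mapped reads, and RPMR, a score relative to 45S rRNA reads, each per M (mega) reads. The counts behind the tests ranged from 2321956 to 5069009 24-nt reads per library, and counting intervals and floors cover counting error only.

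Counts were tested with edgeR 4.0.16 in R 4.3.3 (quasi-likelihood, library size from 45S rRNA reads, at least 10 counts over the libraries fitted, at least 2-fold, FDR at most 0.05 over all windows). p-values measure the spread between these libraries, which the labels number as biological replicates. Single values were compared by exact permutation tests in scipy 1.17.1. Scripts were tested on simulated data. Alternatives were TMM, RPM and miRNA scaling, DESeq2 1.42.0, other count minimums, 4 groups in the fit, uniquely mappable windows, a replicate block and leaving out each library. Named items were, per direction, the 6 loci and 6 genes with most called windows, the 6 windows of lowest FDR without overlap, the 5 fullest bins, and the list members with most calls. Members and lists were chosen with earlier results of these data known. Gene models are RefSeq TAIR10.1, and transposon names were not used here.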

Additional observations from a re-analysis of the deposited data

Results flagged for a closer look

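The *zmp-2* effect on 24-nt reads was tested for a difference between batches with an interaction term in edgeR. Of 176929 windows tested, 79 passed an FDR of 0.05. In 47 of them the effect was more negative in batch B and in 32 more positive in batch B. Among the 79, batch A had called 23 as hypo-DSRs and 30 as hyper-DSRs, and 9 had opposite calls in the 2 batches. None of the 12 windows with the lowest FDR in batch A was among them.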

How the results depend on the processing

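With RPM scaling 7309 hypo-DSRs and 6530 hyper-DSRs of 24 nt and 2089 hyper-DSRs of 23 nt were called, and TMM gave 1853 hyper-DSRs of 23 nt. DESeq2 called 2246 hyper-DSRs of 24 nt, 2446 hypo-DSRs of 23 nt and 650 hyper-DSRs of 23 nt. Uniquely mappable windows alone held 744 hyper-DSRs of 23 nt. In batch B, RPM scaling, added after seeing the data, gave 2836 hyper-DSRs of 24 nt. The median window had a log2 fold change of 0.36 with RPM, 43.2% of hyper-DSRs were pericentromeric, and the log2 ratios of the arms of chromosomes 1 and 3 and the chromosome 5 pericentromere turned to 0.037, 0.075 and 0.14. A wider pericentromere, at 0.75 of the median coding coverage, held 65.8% of hypo-DSRs and 50.1% of hyper-DSRs. The share called in both sizes was 79.1% and 56.1% with at least 30 counts and 57.3% and 34.7% with RPM. The difference in the 23-nt share, -0.878 points at hyper-DSRs of batch B, was 0.651 points over all windows. The cause of these shifts was not tested.

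Leaving out 1 library gave 7050 to 8112 hypo-DSRs and 2289 to 3075 hyper-DSRs of 24 nt, and 3380 to 4138 hypo-DSRs and 760 to 947 hyper-DSRs of 23 nt. In every one of these fits 6148 hypo-DSRs (68.2%) and 1745 hyper-DSRs (47.3%) were called. Same-numbered libraries deviated with correlations of 0.0114, -0.0174 and 0.0125 and were not treated as pairs in the main fit. These values do not show whether they were grown or prepared together. A replicate block gave 9153 hypo-DSRs and 4108 hyper-DSRs of 24 nt, and 4416 and 1126 of 23 nt. No batch A window had the opposite call in any refit. Depth limits hyper-DSRs most, since 52.9% had at most 3 counts in each WT library.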
